A study of Mus musculus with 12 samples.

Results

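The small intestine of mice in the group labelled MSC+Mel was compared with that of mice in the group labelled Melphalan, gene by gene. The comparison used 3 MSC+Mel and 3 Melphalan libraries, which are 6 of the 12 RNA sequencing libraries of the series. A gene entered if it reached 1 FPKM or more in at least 3 of the 12 libraries, and 12847 of the 55484 genes in the table did so. FPKM is the number of sequenced fragments of a gene divided by the length of its transcript and by the size of the library. The question was how the intestine of animals that had both treatments differed from that of animals given the drug alone.

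Melphalan is an alkylating drug that crosslinks DNA. MSC are mesenchymal stem cells, here derived from human umbilical cord. Every library is mouse small intestine: Control is labelled as wild type and names no agent, Melphalan had the drug, and Mel+MSC and MSC+Mel had the drug and the cells under names whose order is not explained. The labels give no strain, age, dose, route or time. They do not say whether libraries are separate animals, so every p-value measures the spread between libraries, which may be technical. Reads were aligned to the mouse genome, so RNA of the human cells was not measured as such.

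The lining of the small intestine is renewed from stem cells at the base of the crypts, whose daughters divide and then mature into absorptive enterocytes, mucus-making goblet cells and other types as they leave the crypt. Crosslinked DNA blocks replication, activates the transcription factor p53 and stops or kills dividing cells, so crypts are among the first tissues that alkylating drugs injure. Cells that divide also need membrane lipids, made by the sterol and fatty acid synthesis enzymes.

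In MSC+Mel, 105 genes were higher and 54 lower than in Melphalan at an adjusted p under 0.05 (limma with Benjamini-Hochberg adjustment over all tested genes). That is 1.24% of the genes tested, 0.817% higher and 0.42% lower, and 2852 genes had an unadjusted p under 0.05. The shares of 0.817% and 0.42% are the background for every count of called list members below. The genes that rose included the crypt stem cell gene Olfm4, the goblet cell list gene Clca3b, and genes of cell division and of sterol synthesis. Among those that fell were 4 p53 targets, led by Phlda3, and 2 of the 4 entered only through their level in Melphalan. Changes are differences on the log2(FPKM + 1) scale, which understate the change of low genes. The median change of all tested genes was -0.05.

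**Figure D1:**
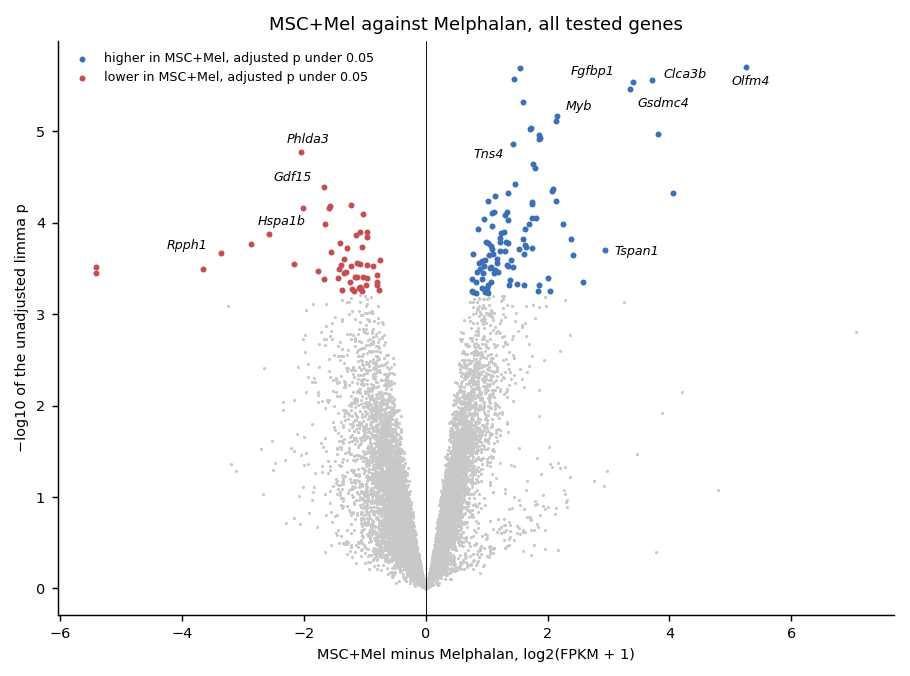
Each point is 1 of the 12847 tested genes, with its difference MSC+Mel minus Melphalan on the log2(FPKM + 1) scale on the horizontal axis and the −log10 of the unadjusted limma p on the vertical axis. The 105 genes called higher (blue) reach 5.26 at Olfm4, and the 54 called lower (red) include Rpph1 at -3.36.

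Several library facts bear on every result. The MSC+Mel libraries resembled each other more closely than any others did: the median SD of a gene over the 3 libraries was 0.149 on the log2 scale in MSC+Mel, beside 0.263 in Control, 0.322 in Mel+MSC and 0.339 in Melphalan. The fit gives all groups 1 shared spread. Melphalan 2 stood apart in leukocyte RNA, with Ptprc, the pan-leukocyte surface protein CD45, at 95 FPKM beside 1.82 and 5.32 in the other Melphalan libraries. Without that library 401 genes were called, and without Melphalan 1 or 3, 18 or 32. Without MSC+Mel 1, 2 or 3 the counts were 8, 6 and 16. In these 6 fits the 159 genes had an adjusted p of at most 0.19, but 117 of them kept the call in 1 fit alone and 5 in all 6. Their direction could not turn in these fits, because none of the 159 overlapped between MSC+Mel and Melphalan. The fit also draws on the other groups, and without Mel+MSC 3 it called 926 genes. The epithelial genes Epcam (727 to 1300 FPKM) and Vil1 (374 to 1031 FPKM) were high in every library. The liver gene Alb and the pancreatic genes Pnlip and Ins2 were at or near 0. Not all markers of these organs were: the pancreas marker Cela1 was at 9.62 to 33.8 FPKM, and the liver marker Ttr reached 1.70.

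**Figure D2:**
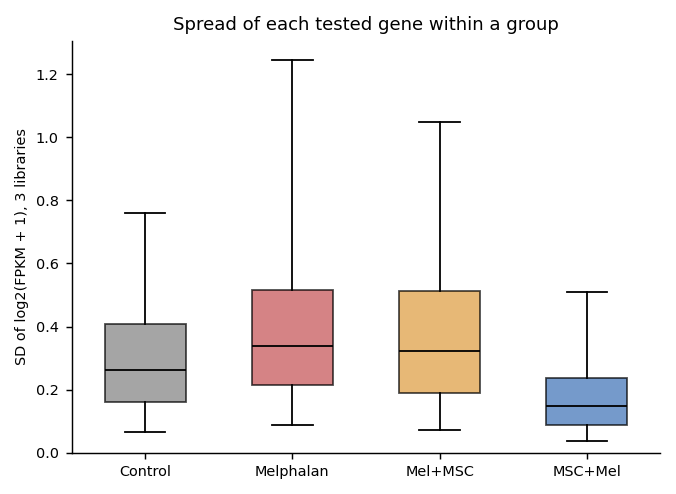
Boxes show the SD of log2(FPKM + 1) over the 3 libraries of a group, across the 12847 tested genes (line, median; box, 25th to 75th percentile; whiskers, 5th to 95th). The MSC+Mel box lies lowest, with a median of 0.149, and the SD was smaller in MSC+Mel than in Melphalan for 10658 genes (83.0%).

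Genes of the crypt base and of crypt progenitors were among those that rose most. Olfm4, a secreted glycoprotein that marks crypt base stem cells (ENSMUSG00000022026, GRCm38 chromosome 14, 79984081 to 80023139, plus strand), was at 199, 269 and 257 FPKM in MSC+Mel and at 7.16, 2.37 and 7.99 in Melphalan. The groups did not overlap, and Control spanned the MSC+Mel values with 399, 361 and 79.5. The change was 5.26 (SE 0.59, limma adjusted p = 0.00737), the largest rise of any called gene. Myb, a transcription factor that keeps crypt progenitors dividing, was at 15.2, 13.7 and 15.3 FPKM in MSC+Mel beside 2.38, 2.46 and 2.72 in Melphalan (2.16, SE 0.28, limma adjusted p = 0.0103). Ephb2, a receptor that positions cells along the crypt, was at 6.17, 8.89 and 7.28 FPKM beside 1.18, 1.29 and 1.76 (1.80, SE 0.30, limma adjusted p = 0.028).

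These 3 were the called members of a list of 21 tested crypt stem cell genes (background 0.817% of all tested genes called higher). The median change of the list was 0.38, and 16 of the 21 were fitted above 0. The groups did not overlap, with MSC+Mel higher, for 9 of the 21, beside 16.3% of all tested genes. Smoc2, a stem cell marker, was at 15.4, 18.9 and 16.3 FPKM in MSC+Mel and at 10.5, 5.41 and 6.11 in Melphalan, and did not pass (limma adjusted p = 0.0855). Lgr5, the receptor that defines these stem cells, stayed under the filter, at 0.228, 1.13 and 0.619 FPKM beside 0.00991, 0.145 and 0.768, and the groups overlapped. Of the 3 calls, Olfm4 held when any 1 of the 6 compared libraries was removed, Myb missed the threshold without MSC+Mel 1 (adjusted p = 0.0706) or MSC+Mel 2 (adjusted p = 0.0617), and Ephb2 held without Melphalan 2 alone. In bulk tissue, fewer cells of a type and less RNA per cell cannot be told apart.

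Other crypt and secretory genes rose with them. Clca3b, of the calcium-activated chloride channel regulator family (chromosome 3, 144822623 to 144849357, minus strand), was at 101, 114 and 110 FPKM in MSC+Mel and at 7, 4.84 and 11.3 in Melphalan. Its change was 3.72 (SE 0.43, limma adjusted p = 0.00737), and its 3 MSC+Mel values stood close together and far above Melphalan. Fgfbp1, which releases fibroblast growth factors from the matrix, was at 16.9, 15.1 and 15.2 FPKM beside 0.945, 0.278 and 0.617 (3.39, SE 0.40, limma adjusted p = 0.00737). Tspan1, a tetraspanin of epithelial membranes, was at 32.4, 24.7 and 31.4 FPKM beside 2.32, 1.79 and 5.52 (2.95, SE 0.55, limma adjusted p = 0.0338).

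The MSC+Mel values of Fgfbp1 and Tspan1 also lay above all 9 libraries of the other groups. Clca3b and Fgfbp1 held whichever compared library was left out, whereas Tspan1 held without Melphalan 2 alone. Of 19 tested goblet cell genes, Clca3b and Muc2 were higher (background 0.817% of all tested genes) and 0 lower. Only Clca3b can be set beside that share, because Muc2 entered through MSC+Mel, as described below. The median was 0.18, which became -0.10 without Melphalan 2. The summed level of the list of 20 was 4805, 3626 and 3717 FPKM in MSC+Mel and 6246, 3804 and 7567 in Melphalan. Muc2, the gel-forming mucin of goblet cells, was low throughout, at 4.02, 5.33 and 9.17 FPKM in MSC+Mel beside 0.291, 0.205 and 0.44 in Melphalan (2.39, SE 0.43, limma adjusted p = 0.0327). Outside MSC+Mel it reached 1 FPKM in Control 1 alone, so it passed the filter only through the group where it was high and could hardly have been tested without a difference. Tff3, another gene of the goblet list, was at 222 to 2735 FPKM over the 12 libraries. The low level of Muc2 may be a poor estimate, which was not tested. Fcgbp, an abundant mucus protein, was at 413, 300 and 452 FPKM beside 845, 568 and 906 (limma adjusted p = 0.203).

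A potassium channel and its partner were both higher. Kcnq1, the pore subunit, was at 14.7, 16.7 and 15 FPKM in MSC+Mel and at 2.76, 2.1 and 4 in Melphalan (2.08, SE 0.32, limma adjusted p = 0.0244). Kcne3, the accessory subunit that holds this channel open in epithelia, was at 49.2, 34.5 and 31.7 FPKM beside 8.02, 3.23 and 13.1 (2.25, SE 0.39, limma adjusted p = 0.0289). Slc1a1, a glutamate transporter, was at 18.8, 13.2 and 12.5 FPKM beside 2.91, 2.8 and 4.24 (1.87, SE 0.25, limma adjusted p = 0.0103). Slc1a1 was the called member of 31 tested genes of amino acid, sugar and ion transport, whose median was -0.02 with 14 above 0, and 0.28 with 25 above 0 after quantile normalization. Kcnq1 and Kcne3 held when Melphalan 2 or 3 was removed and missed the threshold without Melphalan 1 or any MSC+Mel library (limma adjusted p up to 0.133 and 0.138). Slc1a1 missed it without Melphalan 1, MSC+Mel 1 or MSC+Mel 2 (limma adjusted p up to 0.0806).

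Paneth cells, which lie among the stem cells and secrete antimicrobial proteins, gave 0 called genes of 18 tested by limma, with 2 at an unadjusted p under 0.05 and a median of 0.31, which was 0.11 without Melphalan 2 and 0.73 after quantile normalization. Lyz1, their lysozyme, was at 150, 144 and 227 FPKM in MSC+Mel, at 129, 149 and 104 in Melphalan and at 418, 211 and 330 in Control. The MSC+Mel and Melphalan values overlapped. Defa26, an alpha-defensin whose near-identical relatives make its value uncertain, was at 10.3, 12.4 and 18.3 FPKM beside 3.66, 1.91 and 4.22, with Control at 34 to 63.4 (limma adjusted p = 0.0568). The Paneth list had a median of -1.16 in MSC+Mel against Control, while the stem cell list had one of 0.09.

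**Figure D3:**
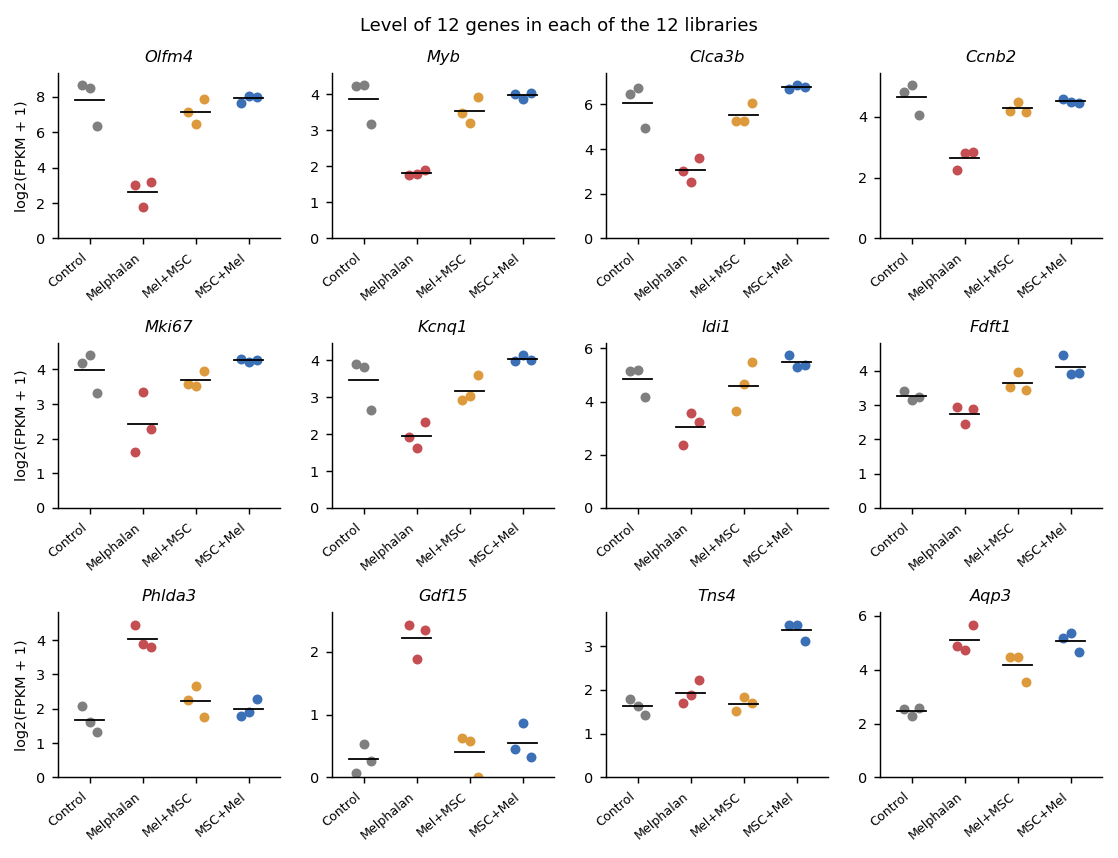
Each panel shows 1 gene as log2(FPKM + 1) in the 12 libraries, 3 points a group from library 1 at the left to library 3 at the right, with the mean as a bar. Olfm4, Myb, Clca3b, Ccnb2, Kcnq1 and Idi1 stood above Melphalan in all 3 MSC+Mel libraries, Phlda3 and Gdf15 below, and Aqp3 overlapped between the groups.

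Of the lists, that of cell division held the most called genes. All 35 tested genes of G2 and M phase, the part of the cycle in which chromosomes condense and separate, were fitted above 0. Their median change was 1.28, beside -0.05 over all genes. By limma, 8 were called higher (background 0.817% of all tested genes) and 0 lower. For 32 of the 35 the 3 MSC+Mel libraries all lay above the 3 Melphalan libraries, beside 16.3% of all tested genes. The summed level of the 35 genes was 529, 492 and 447 FPKM in MSC+Mel, 138, 205 and 221 in Melphalan, and 607, 676 and 344 in Control.

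The 8 called genes act at successive steps of mitosis. Ccnb2, a B-type cyclin that drives entry into mitosis (minus strand of chromosome 9, 70407692 to 70421547), was at 22.7, 21.6 and 20.7 FPKM in MSC+Mel and at 3.79, 6.07 and 6.13 in Melphalan. Its change was 1.86 (SE 0.25, limma adjusted p = 0.0103). Cdca3, a trigger of mitotic entry, was at 32.5, 33.4 and 27.7 FPKM beside 4.94, 6.27 and 8.06 (2.13, SE 0.28, limma adjusted p = 0.0103). In both genes the lowest MSC+Mel value was over 3 times the highest Melphalan value. Mki67, the proliferation marker that coats mitotic chromosomes, was at 18.8, 17.5 and 18.3 FPKM beside 2.07, 9.19 and 3.86 (1.85, SE 0.39, limma adjusted p = 0.0466). Its Melphalan values were uneven, with Melphalan 2 highest.

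The others were Ccna2, cyclin A2, with a change of 1.63, Nusap1 (1.69), Prc1 (1.10) and Kif23 (1.43), which build the spindle and its midzone, and Cdc20 (1.60), an activator of the complex that starts chromosome separation. Of 33 tested S phase genes, which copy DNA, Prim1, a DNA primase subunit, was higher, at 10.3, 9.2 and 8.52 FPKM beside 1.96, 4.99 and 2.77 (1.35, SE 0.26, limma adjusted p = 0.0377). The S phase median was 0.67, and the groups did not overlap, with MSC+Mel higher, for 14 of the 33 (background 16.3% of all tested genes). Tyms, thymidylate synthase, was at 16, 16 and 13.8 FPKM beside 1.47, 8.31 and 6, and did not pass (limma adjusted p = 0.093). Among 25 tested genes of DNA crosslink repair 0 were called by limma and 8 had an unadjusted p under 0.05 (median 0.37). The number of called G2 and M phase genes was 0 without MSC+Mel 1 or 2, 1 without MSC+Mel 3, 2 without Melphalan 1 or 3 and 17 without Melphalan 2.

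The promoters of these genes are shown because cell cycle genes are known to share sequence elements: the CCAAT box, bound by NF-Y, and the element called CHR (TTTGAA), bound by the DREAM complex. In RefSeq promoter windows of build GRCm38.p6, cut to the 250 bases before the start, 29 of the 35 G2 and M phase genes had 30 windows. CCAAT on either strand was in 25 of the 30 windows (83.3%), and in 35.4% of the 12353 windows of 9645 tested genes. CHR on either strand was in 10 (33.3%) and in 11.1% of all windows. Both were in 9 (30%) and in 4.17% of all. In windows of genes called higher and called lower, CCAAT was in 42.7% and 29.8%, CHR in 21.3% and 19.1%, and both in 11.2% and 8.51%. The part of these motifs in the changes was not tested. A match is a description and not a bound site. Called members with both are printed 5′ to 3′ on the strand of the gene, with CCAAT, CHR and their reverse complements in capitals, which do not overlap each other. They are Ccnb2 at chr9:70421555-70421804 (minus strand), Prc1 at chr7:80294226-80294475 (plus strand), Cdc20 at chr4:118437344-118437593 (minus strand) and Mki67 at chr7:135716380-135716629 (minus strand).
Ccnb2: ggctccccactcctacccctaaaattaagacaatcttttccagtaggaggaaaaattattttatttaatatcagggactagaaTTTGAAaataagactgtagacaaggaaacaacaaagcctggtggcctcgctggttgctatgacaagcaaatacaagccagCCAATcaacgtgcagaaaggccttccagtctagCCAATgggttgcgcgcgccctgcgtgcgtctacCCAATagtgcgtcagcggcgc
Prc1: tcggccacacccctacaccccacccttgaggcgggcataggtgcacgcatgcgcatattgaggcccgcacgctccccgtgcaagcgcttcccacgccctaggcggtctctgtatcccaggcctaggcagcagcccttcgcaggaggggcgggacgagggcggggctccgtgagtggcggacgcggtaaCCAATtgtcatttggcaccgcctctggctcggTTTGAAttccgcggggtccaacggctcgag
Cdc20: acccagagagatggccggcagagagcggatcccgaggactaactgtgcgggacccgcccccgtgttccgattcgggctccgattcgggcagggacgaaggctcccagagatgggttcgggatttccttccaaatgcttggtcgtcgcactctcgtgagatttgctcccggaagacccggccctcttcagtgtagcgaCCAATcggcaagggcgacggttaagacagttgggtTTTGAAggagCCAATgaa
Mki67: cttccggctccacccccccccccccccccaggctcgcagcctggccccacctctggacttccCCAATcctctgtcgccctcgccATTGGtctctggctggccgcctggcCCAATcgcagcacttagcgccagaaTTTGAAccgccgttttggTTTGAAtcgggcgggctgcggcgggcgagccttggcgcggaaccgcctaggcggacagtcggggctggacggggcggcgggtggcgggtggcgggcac

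Of 31 tested genes of cholesterol and fatty acid synthesis, 7 rose and 0 fell (background 0.817% of all tested genes called higher). In the list 28 were fitted above 0, with a median of 0.88. The groups did not overlap, with MSC+Mel higher, for 21 of the 31 (background 16.3%). Fdft1, squalene synthase, was at 21, 14 and 14.4 FPKM in MSC+Mel and at 6.63, 4.46 and 6.31 in Melphalan (1.35, SE 0.21, limma adjusted p = 0.0244). Control, at 9.54, 7.92 and 8.31, stood between those groups.

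The enzymes that rose span the pathway. Idi1, which isomerises the isoprenoid building blocks, was at 52.9, 38 and 40.7 FPKM in MSC+Mel and at 4.14, 10.8 and 8.52 in Melphalan (2.42, SE 0.45, limma adjusted p = 0.0345). Lss, lanosterol synthase, had a change of 1.53. Acss2, which makes acetyl-CoA from acetate, changed by 0.88. Fasn, fatty acid synthase, was at 29.6, 22 and 45 FPKM beside 7.42, 11.4 and 3.48, with Control at 6.38 to 14.2 (2.04, SE 0.43, limma adjusted p = 0.0466). Fads2, a fatty acid desaturase outside the list, was at 29.8, 26.2 and 28 FPKM beside 4.62, 7.18 and 6.15 (2.07, SE 0.32, limma adjusted p = 0.0244).

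Among members that did not pass was Sqle, squalene epoxidase, at 35.5, 18.9 and 21.8 FPKM beside 5.48, 6 and 8.46 (limma adjusted p = 0.0526). Against Control the median of the 31 genes was 0.66, and the MSC+Mel values of Fasn, Lss and Acss2 lay above all 9 libraries of the other groups, as did those of Tns4 and Kcnq1. The call count in the list was 1 without each of MSC+Mel 1, 2 and 3, Melphalan 1 and Melphalan 3, and 7 without Melphalan 2.

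Genes of the gasdermin C cluster on chromosome 15, a family of pore-forming proteins, were close to absent in Melphalan. Gsdmc4 was listed at 0, 0.048 and 0.406 FPKM there and at 15.9, 7.49 and 9.98 in MSC+Mel (limma adjusted p = 0.00737). The values of Gsdmc2 were 0, 0.209 and 0.129 FPKM beside 7.34, 1.97 and 3.73 (limma adjusted p = 0.0261), and Gsdmc3 at 0 in all 3 beside 1.6, 0.747 and 0.846 (limma adjusted p = 0.047). All 3 tested members were called, but they are so alike that reads may be split between them, and their values are uncertain. MSC+Mel did not reach Control for Gsdmc4, where Control was at 36.3, 29.2 and 13.4 FPKM and the MSC+Mel values overlapped it only at its lower end. Gsdmc4 held when any 1 compared library was removed, Gsdmc2 only without Melphalan 2 or MSC+Mel 2, and Gsdmc3 only without Melphalan 2.

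Of 36 tested p53 targets, 4 fell and 0 rose (background 0.42% of all tested genes called lower). Of the 4, Gdf15 and Pvt1 passed the filter only through Melphalan, where they were high, so only Phlda3 and Plk2 can be set beside that share. In the list 30 were fitted below 0 and 6 above, and the median was -0.54. The groups did not overlap, with MSC+Mel lower, for 21, beside 17.2% of all genes. The 30 and the 21 include Gdf15 and Pvt1, so the 21 is not a clean measure beside that share. Phlda3, which restrains AKT signalling (chromosome 1, 135766119 to 135769136, plus strand), was at 2.49, 2.77 and 3.91 FPKM in MSC+Mel and at 20.9, 13.7 and 13 in Melphalan. Its MSC+Mel values lay near Control, at 3.28, 2.05 and 1.5 (change from Melphalan -2.04, SE 0.29, limma adjusted p = 0.0128). Gdf15, which encodes a cytokine made under stress, was at 0.369, 0.813 and 0.247 FPKM beside 4.38, 2.68 and 4.06 (-1.67, SE 0.26, limma adjusted p = 0.0244). It reached 1 FPKM in the Melphalan libraries alone, so it too passed the filter only through the group where it was high.

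Plk2, a stress-induced kinase, was at 1.95, 1.74 and 2.76 FPKM in MSC+Mel and at 6.31, 4.55 and 8.25 in Melphalan (-1.21, SE 0.25, limma adjusted p = 0.0465). Pvt1, a noncoding RNA, was at 0.614, 0.266 and 0.348 FPKM beside 1.81, 2.91 and 3.15 (-1.35, SE 0.27, limma adjusted p = 0.039). It reached 1 FPKM in 2 of the 9 other libraries, so it also passed the filter only through Melphalan. The best known targets did not pass: Cdkn1a, the cell cycle inhibitor p21, was at 119, 97.3 and 103 FPKM beside 263, 129 and 261 (limma adjusted p = 0.105). Mdm2, which degrades p53, was at 18.4, 23.4 and 17.9 FPKM beside 25.9, 24.1 and 25.8 (limma adjusted p = 0.245). Neither overlapped between the groups. The count of called p53 targets was 0 without Melphalan 1, MSC+Mel 1 or MSC+Mel 2, 1 without Melphalan 3 or MSC+Mel 3, 8 without Melphalan 2, 2 among genes with a mean of at least 5 FPKM and 1 with a pseudocount of 0.1.

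The other genes that fell were scattered over stress, hormone and signalling functions. Hspa1b, an inducible heat shock protein with a near-identical copy, was at 1.43, 1.39 and 0.857 FPKM in MSC+Mel and at 19.4, 13.5 and 6.72 in Melphalan (-2.57, SE 0.45, limma adjusted p = 0.0313). It was the called gene of 19 tested heat shock genes, whose median was -0.54, and its MSC+Mel values lay below all 9 libraries of the other groups. Dnaja1, a chaperone partner, was at 59.5, 63.4 and 49.5 FPKM beside 152, 130 and 125 and missed the threshold (limma adjusted p = 0.0502). Btg1, an antiproliferative gene of the immediate early list, was at 20, 24 and 25.8 FPKM beside 44.2, 81.1 and 48.4 (-1.23, SE 0.24, limma adjusted p = 0.0377), and was the called member of 17.

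G6pc, the glucose-6-phosphatase that releases glucose, was at 17, 19.6 and 21.1 FPKM in MSC+Mel and at 77.6, 42.5 and 76.9 in Melphalan (-1.68, SE 0.34, limma adjusted p = 0.0418). Tsc22d3, a glucocorticoid-induced regulator also called GILZ, was at 31.7, 35.7 and 19.6 FPKM beside 85.5, 81 and 67.6 (-1.43, SE 0.29, limma adjusted p = 0.0412). Both lay below every library of the other groups.

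Gsdmd, the gasdermin that executes pyroptosis, was at 104, 102 and 109 FPKM in MSC+Mel and at 346, 200 and 293 in Melphalan (-1.37, SE 0.29, limma adjusted p = 0.0466), so it moved opposite to the gasdermin C genes. Ccnd3, cyclin D3, was at 14.4, 10.7 and 10.3 FPKM beside 23.3, 53.2 and 28.3 (-1.42, SE 0.28, limma adjusted p = 0.038), opposite to the mitotic cyclins. Lpcat4, a phospholipid acyltransferase, changed by -1.55, Snx20, a sorting nexin, by -1.58, Ier5, an immediate early response gene, by -1.65, and Zfp688, a zinc finger gene, by -1.35. Rpph1, the RNA of ribonuclease P, was at 0.961, 0.972 and 0.472 FPKM beside 20.9, 18 and 13.9 (-3.36, SE 0.63, limma adjusted p = 0.0345), and Erdr1 changed by -2.87. Of the 54 genes that fell, 0 held their call in all 6 fits that left out a compared library.

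Transcript length and base composition moved with the comparison. With the tested genes split into 4 bins of equal size by their longest annotated transcript, the median change ran from -0.31 in the bin of shortest genes to 0.13 in that of the longest. By GC content it ran from 0.11 in the lowest bin to -0.25 in the highest. The 4 bins from low to high GC held 29, 33, 22 and 21 of the genes called higher and 4, 8, 17 and 25 of those called lower. The part of these properties in the calls was not tested.

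The lists of lipid absorption, brush border digestion, and xenobiotic and glutathione metabolism, which cover functions of mature enterocytes, gave 0 called genes. All but 1 of 24 tested genes of lipid absorption were fitted below 0 (median -0.61, and -0.23 after quantile normalization, with 8 above 0), 0 passed by limma, and 8 had an unadjusted p under 0.05. Apoa1, the apolipoprotein of high density lipoprotein, was at 3333, 3819 and 3337 FPKM in MSC+Mel and at 10723, 9587 and 16632 in Melphalan (limma adjusted p = 0.115). Fabp2, the intestinal fatty acid binding protein, was at 6622, 6465 and 5805 FPKM beside 13832, 8729 and 23093 (limma adjusted p = 0.277). In both the groups did not overlap and the Melphalan values were widely spread.

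Brush border digestion genes gave 0 calls of 22 by limma, with 4 at an unadjusted p under 0.05 (median -0.30, but 0.13 after quantile normalization), and Anpep, an aminopeptidase, was at 2514, 2009 and 1809 FPKM beside 7618, 4043 and 7076 (limma adjusted p = 0.0936). Xenobiotic and glutathione metabolism gave 0 calls of 36, with 6 at an unadjusted p under 0.05 (median -0.58, and -0.24 after quantile normalization). Mgst1, a microsomal glutathione transferase, was at 304, 281 and 218 FPKM beside 554, 504 and 859 (limma adjusted p = 0.123). Against Control the medians of the 3 lists were 0.16, 0.32 and 0.10.

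**Figure D4:**
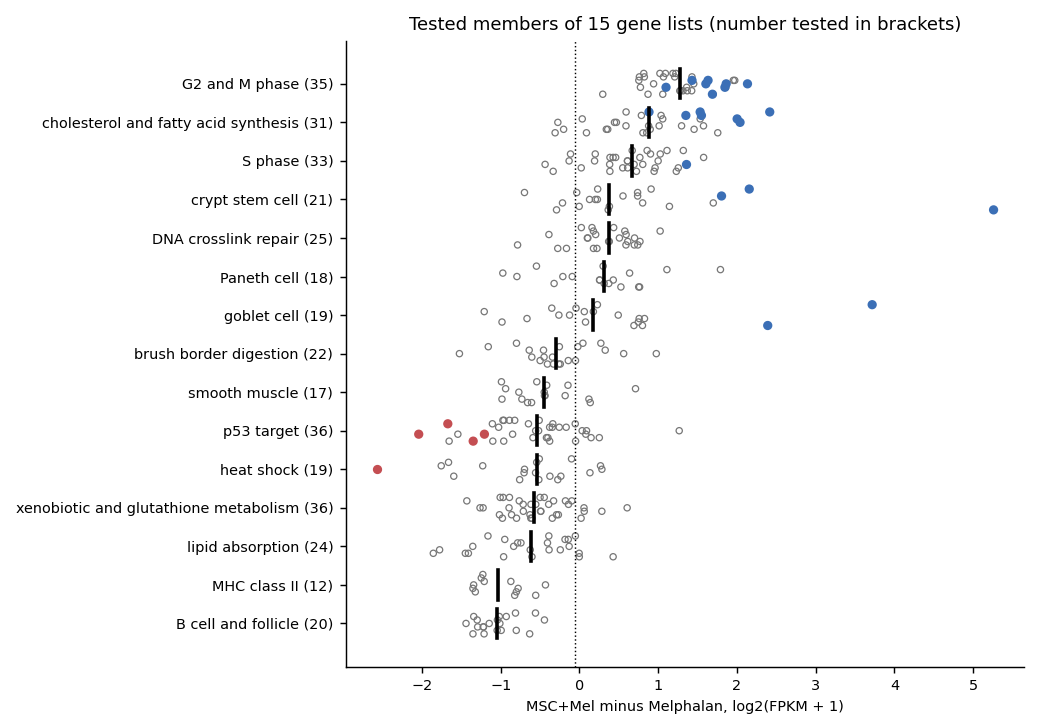
Each row is 1 of 15 gene lists, and each point is the difference MSC+Mel minus Melphalan of 1 tested member on the log2(FPKM + 1) scale (filled, adjusted p under 0.05; thick bar, list median; dotted line, median of all tested genes). The G2 and M phase members all lie above 0, with a median of 1.28, and the B cell members all lie below 0, with a median of -1.04 that rests on Melphalan 2.

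Lists of leukocytes, fibroblasts and endothelium gave 0 called genes by limma, and several of their medians hung on Melphalan 2. At an unadjusted p under 0.05 there were 1 B cell, 0 T and NK cell, 0 macrophage, 3 MHC class II, 1 fibroblast and 2 endothelial genes. The 20 tested B cell genes had a median of -1.04, which became 0.52 without Melphalan 2. Their summed level was 1843 FPKM in Melphalan 2, beside 11.8 and 18.9 in the other Melphalan libraries and 16.9 to 157 in MSC+Mel. Cd79a, part of the B cell receptor, was at 149 FPKM in Melphalan 2. The 23 T and NK cell genes went from -0.57 to 0.17 without that library, and the 19 macrophage genes from -0.27 to 0.13. The 12 genes of MHC class II, which present antigen, were all fitted below 0 (median -1.04, and -0.23 without Melphalan 2). H2-Ab1, one of them, was at 108, 94.3 and 154 FPKM in MSC+Mel beside 221, 517 and 228 (limma adjusted p = 0.0948).

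Smooth muscle genes moved in another way. Of 17 tested, 0 passed by limma and 5 had an unadjusted p under 0.05, but for 12 the MSC+Mel libraries all lay below the Melphalan libraries (background 17.2%), with a median of -0.45 that was -0.66 without Melphalan 2. Des, the muscle filament desmin, was at 27.2, 20.6 and 24.5 FPKM beside 52, 51.5 and 42.8, with Control at 40.4 to 56.3 (limma adjusted p = 0.0553). The summed level of the list was 575 to 650 FPKM in MSC+Mel, 786 to 1008 in Melphalan and 807 to 1258 in Control. Fibroblast genes had a median of 0.13 and endothelial genes one of -0.12, which were 0.41 and 0.02 without Melphalan 2. The part of tissue makeup in the results above was not tested.

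Where MSC+Mel stood relative to Control was read from the same fit. Comparisons of MSC+Mel with Melphalan and with Control share the MSC+Mel libraries, so their values are given side by side only. Of the 105 genes that were higher than in Melphalan, 59 overlapped Control in MSC+Mel, 43 lay above all 3 Control libraries and 3 below. Of the 54 that were lower, 16 overlapped Control and 38 lay below all 3 Control libraries. Of all tested genes, 1719 (13.4%) lay above all 3 and 1856 (14.4%) below. Against all 9 other libraries, 32 of the 105 lay above and 32 of the 54 below, beside 253 (1.97%) and 333 (2.59%) of all tested genes. The 9 include Melphalan, from which all 105 and all 54 already stood apart, so a larger share among called genes was set in advance. The 253 and 333 are among the 2090 higher and 2214 lower genes that did not overlap Melphalan.

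Directly against Control, 22 genes were called (0.171% of those tested), 8 higher (0.0623%) and 14 lower (0.109%). Nlrp9b, an inflammasome sensor of the intestinal epithelium, changed by -1.13 from Melphalan and -1.79 from Control (limma adjusted p = 0.0194 from Control). Irf2bp2, a transcriptional corepressor, changed by -0.80 and -1.08, and Tmem265 by -1.04 and -1.30. Ythdc1, a reader of methylated adenosine in nuclear RNA, was at 15.9, 14.4 and 12.1 FPKM in MSC+Mel, beside 34.1, 25.3 and 26.2 in Melphalan and 28.5, 33.6 and 40.4 in Control. Banp, a chromatin protein, was at 2.66, 2.57 and 2.19 FPKM beside 6.85, 8.63 and 5.99 in Melphalan and 6.32, 7.22 and 7.95 in Control. In both the MSC+Mel values lay below every other library.

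Some genes that stood away from Control in Melphalan stood there in MSC+Mel too; these were chosen after their values were seen. Aqp3, a channel for water and glycerol, was at 35.1, 40.1 and 24.1 FPKM in MSC+Mel, at 28.2, 25.2 and 50.1 in Melphalan and at 4.85, 3.81 and 5.04 in Control. Its change from Melphalan was -0.02, with a 95% interval of -0.72 to 0.67, and its change from Control 2.59 (limma adjusted p = 0.0194). Acta1, skeletal muscle actin, was at 13.5, 21.7 and 11.2 FPKM beside 16, 4.14 and 17.4 in Melphalan and 0.878, 1.11 and 1.07 in Control (from Control 2.98, limma adjusted p = 0.0358; from Melphalan 0.44, interval -0.53 to 1.40). Hba-a1, an alpha globin of red cells, was at 0.241, 0 and 0 FPKM in MSC+Mel, 4.26, 1.23 and 0 in Melphalan and 37.3, 11.7 and 13.9 in Control.

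The group that had the same agents under the other name, Mel+MSC, differed from MSC+Mel in 1 called gene (0.00778% of those tested), while 1562 had an unadjusted p under 0.05. That gene was Tns4, a focal adhesion protein of epithelia (chromosome 11, 99065678 to 99089306, minus strand). It was at 10.3, 10.2 and 7.72 FPKM in MSC+Mel and between 1.71 and 3.67 in all 9 other libraries, with Mel+MSC at 1.87, 2.58 and 2.27. The change was 1.68 from Mel+MSC (SE 0.20, limma adjusted p = 0.0378) and 1.43 from Melphalan (SE 0.20, limma adjusted p = 0.011). The call against Mel+MSC was lost without any 1 of MSC+Mel 1, 2 or 3 (adjusted p = 0.101, 0.46 and 0.11), without Mel+MSC 1 or 2 (adjusted p = 0.331 and 0.164) and without Control 2 or 3 (adjusted p = 0.116 and 0.0699). Without Mel+MSC 3, 398 genes were called in that comparison, 65 higher and 333 lower in MSC+Mel. A difference between the 2 combined groups that missed the threshold is not shown to be absent.

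**Figure D5:**
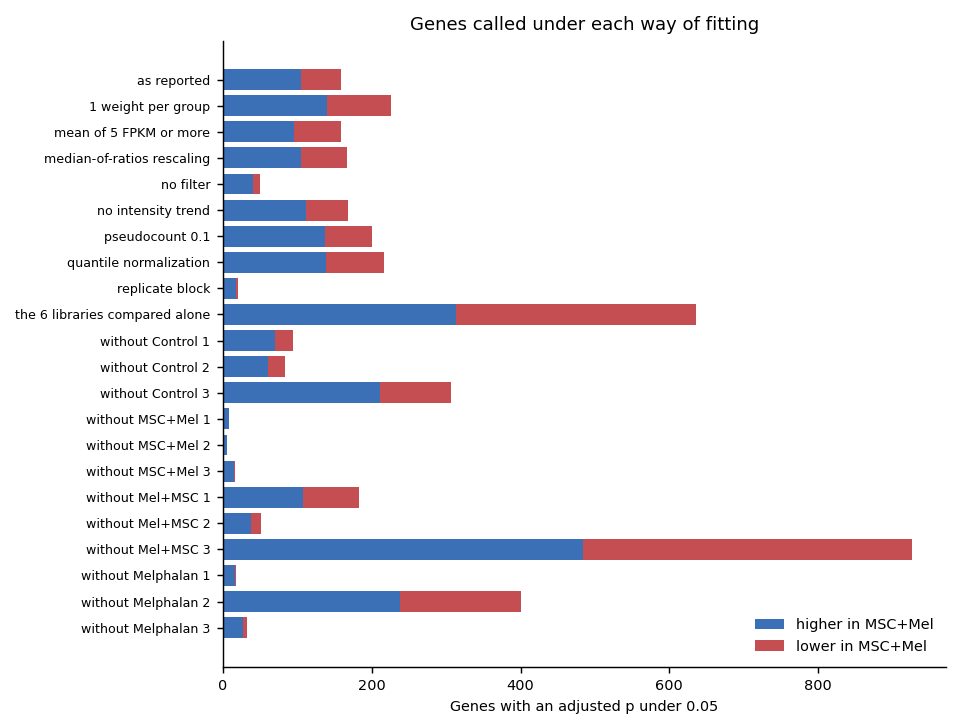
Each bar is the number of genes with an adjusted p under 0.05 in MSC+Mel against Melphalan, higher (blue) and lower (red), under 1 way of fitting. The count is 159 as reported, and it ran from 6 without MSC+Mel 2 to 926 without Mel+MSC 3.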

How the data were processed

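Total RNA of mouse small intestine was extracted and made into TruSeq libraries, per the labels' protocols, 3 in each of 4 groups. Per the submitters' processing notes, the authors used STAR, Cufflinks and Cuffnorm (versions not given in the sources used here) with the builds mm10 and GRCm38, and deposited FPKM values. The scaling between libraries, the strand setting and the annotation release are not given in the sources used here. All 12 columns were matched to a labelled sample. FPKM values are not counts, so read depth is unknown. The values of 1 fragment, read from the steps between low values, placed Melphalan 1 at 1.41 times and the MSC+Mel libraries at 0.876 to 0.879 times Control 1, so a low value rests on fewer fragments in Melphalan 1. Genes listed at exactly 0 can be failed estimates: mt-Co1, which every cell uses, is listed at 0 in all libraries.

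Values were put on the log2(FPKM + 1) scale. The model was limma 3.58.1 under R 4.3.3 with all 12 libraries, 1 mean per group, an intensity trend and 8 residual degrees of freedom, with Benjamini-Hochberg adjustment over the 12847 genes. Coordinates are from GENCODE M21 (55224 identifiers matched), transcript lengths and GC content from its longest transcripts, and promoters from RefSeq. The 41 gene lists (902 of 904 entries matched) and the comparison itself were chosen with earlier results of these data known. Named genes come from the 12 highest and 12 lowest called changes without overlap between groups and a higher mean of 5 FPKM or more. Predicted genes and annotated classes of small RNA were left out there, but Rpph1, a noncoding RNA, passed that exclusion. Others come from the 3 members of each list with the smallest p, and from fixed markers. Acss2, Acta1, Aqp3, Banp, Ccna2, Cd79a, Cdc20, Fabp2, Fasn, Fcgbp, Irf2bp2, Kif23, Nlrp9b, Plk2, Prc1, Smoc2, Sqle, Tmem265, Ythdc1 and the genes of the closing observations lie outside this rule and were chosen after their values were seen. Other fits had the replicate number as a block, the 6 libraries alone, 1 weight per group, no trend, quantile-normalized or median-of-ratios values, a smaller pseudocount (0.1), a mean of at least 5 FPKM, or all genes unfiltered, and each library was left out in turn. Some genes are not reported here. Scripts were tested on simulated data. Figures used Python 3.11.15 and matplotlib 3.10.9.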

Additional observations from a re-analysis of the deposited data

Results flagged for a closer look

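Tns4 was higher in MSC+Mel than in Mel+MSC by 1.68 on the log2(FPKM + 1) scale (limma adjusted p = 0.0378), which marks it as a gene in which the groups that had both agents differ from each other in their distance from Melphalan. Its MSC+Mel libraries, at 10.3, 10.2 and 7.72 FPKM, lay above all 9 others. The adjusted p over the other fits ran from 0.0237 without Mel+MSC 3 to 0.46 without MSC+Mel 2.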

How the results depend on the processing

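The 159 genes called in MSC+Mel against Melphalan became 50 with no filter, 20 with the replicate number as a block (17 higher, 3 lower, all among the 159) and 636 with the 6 libraries compared alone (313 higher and 323 lower, 144 of the 159 among them). Leaving out 1 compared library gave 6 to 401 genes. Leaving out a Control or Mel+MSC library, which was added after seeing the data, gave 51 to 926: 94, 83 and 306 for Control 1, 2 and 3, and 183, 51 and 926 for the Mel+MSC libraries in order. Higher calls were 66.0% of the 159, 49.2% with the 6 libraries alone and 52.3% without Mel+MSC 3. The count stayed within 1.5 times with median-of-ratios rescaling (167), no trend (168), pseudocount 0.1 (200), a mean of at least 5 FPKM (159, of which 108 were among the first 159), quantile normalization (217) and 1 weight per group (226, 148 of the 159 among them). Olfm4, Clca3b, Fgfbp1 and Gsdmc4 were among the 5 genes that kept their call in all 6 fits that left out a compared library. The single call against Mel+MSC became 0 after quantile normalization, with the block or with a mean of at least 5 FPKM, 2 with no filter (neither of them Tns4, adjusted p = 0.0516), 2 with pseudocount 0.1 (Tns4 among them), and 0 to 398 with 1 library left out. With the Mel+MSC and MSC+Mel libraries alone, 1 other gene was called (Tns4 adjusted p = 0.0805). Aqp3 turned to 0.16 after quantile normalization, 0.18 without MSC+Mel 3 and 0.27 without Melphalan 3 (range with 1 library left out -0.21 to 0.27), and Acta1 to -0.16 without Melphalan 2 (range -0.16 to 0.76). The causes were not tested. Same-numbered libraries of the 2 groups correlated at 0.0702, -0.0675 and 0.0174 in their deviations from the group means, and differently numbered ones at -0.172 to 0.18. With 3 libraries a group, these values cannot show whether the numbers pair libraries. FPKM without counts gives no depth, and 3 libraries a group limit what could be called.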

Other observations

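Some genes of mitochondrial proteins were among the 105 genes that were higher in MSC+Mel than in Melphalan; they were picked after their values were seen and carry no test as a group. Mrpl3, of the large mitochondrial ribosome subunit, was at 38.4, 36.2 and 34.9 FPKM beside 16.2, 18.3 and 14.4 (1.12, limma adjusted p = 0.0273). Mrps22 and Mrps18b, of the small subunit, changed by 1.09 and 0.96, Lrpprc and Ptcd3, which handle mitochondrial RNA, by 1.06 and 1.07, and Opa1, which fuses the inner membrane, by 1.11. Over all 78 tested genes of the mitochondrial ribosome 3 were called higher (background 0.817% of all tested genes) and 0 lower. However, 48 of the 78 were fitted below 0 and the median was -0.14.

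Fkbp5, a partner of the glucocorticoid receptor that was also picked after its values were seen, was at 15.2, 12.2 and 16.5 FPKM in MSC+Mel, 21.6, 39.9 and 37.3 in Melphalan and 14.7, 12.5 and 13 in Control (-1.08, limma adjusted p = 0.0461). The enteroendocrine list gave 0 called genes of 17 by limma, with 3 at an unadjusted p under 0.05, 12 fitted below 0 and a median of -0.15, which was 0.21 without Melphalan 3. The neuron and glia list gave 0 of 10, with 2 at an unadjusted p under 0.05, 8 fitted below 0 and a median of -0.26.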
